A study of Oryctolagus cuniculus with 12 samples.

Results

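The contractile genes of arterial smooth muscle were examined in the aorta of rabbits with coarctation of the aorta (CoA), a narrowing of the thoracic aorta that raises blood pressure upstream of it. The set held 6 genes, ACTA2, MYH11, CALD1, TPM2, DES and KCNMB1, taken by their rabbit gene symbols, and 7 of the 43603 probes on the array carried one of these symbols (DES had 2). Of the 27283 probes that passed the detection filter, 6 belonged to the set, 1 for each gene. All rabbits were male New Zealand white animals harvested at 32 weeks of age, and RNA came from a ring of about 4 mm of the whole aortic wall, cut upstream of the narrowing and below the left subclavian artery. Control rabbits had no experimental procedure and therefore no sham surgery. CoA rabbits received a permanent silk suture at about 10 weeks of age that imposed a pressure gradient of 20 mmHg. Corrected rabbits received the same gradient with a Vicryl suture that degraded, which left a modest residual narrowing. In the authors' earlier work with this model, pressure upstream was raised in CoA relative to both other groups. Each group had 4 rabbits with 1 array each, and 1 Corrected array (replicate 3) was left out of the tests as its label states, leaving 4 Control, 4 CoA and 3 Corrected arrays.

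Contraction of arterial smooth muscle depends on myosin filaments pulling on actin filaments after calcium has activated myosin light chain kinase. ACTA2 encodes smooth muscle alpha-actin, the main actin of these cells, and MYH11 encodes the smooth muscle myosin heavy chain, the motor. Caldesmon (CALD1) and beta-tropomyosin (TPM2) lie along the actin filament and limit its access to myosin, desmin (DES) forms intermediate filaments that link the contractile units, and KCNMB1 is the beta-1 subunit of the large-conductance calcium-activated potassium channel, which hyperpolarizes the cell and opposes contraction. These genes are used as markers of the contractile state of arterial smooth muscle. Their smooth muscle forms are known to fall when such cells take on a synthetic state. Which isoforms of CALD1 its probe reads was not checked. DES is also abundant in skeletal and cardiac muscle, and TPM2 in skeletal muscle.

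Levels are given below as log2 signal, the log2 of the array's processed fluorescence intensity after quantile normalization, and differences between groups as log2 fold change. A probe was called when it changed by more than 2-fold with an unadjusted p under 0.05 in limma, and Benjamini-Hochberg adjusted p-values were taken over all 27283 probes tested. Between 55.8% and 77.7% of spots on the 11 arrays were well above background, against 45.6% on the excluded array, and no spot was saturated. ACTA2 and MYH11, which define smooth muscle, were well above background on all 12 arrays. Several arrays stood apart. Control replicates 3 and 4 were closer to each other than any other pair, with a robust SD of their difference of 0.186 log2 units against 0.313 for the next pair. Whether they came from separate rabbits was not tested, and the Control SDs and all tests against Control count them as 2. CoA replicate 2 carried far more signal of some striated muscle genes than the other arrays, as described with DES. The file headers placed the arrays in 4 scans, and the 4 CoA arrays filled a scan of their own, so CoA and scan cannot be told apart. In RNA from a whole ring, fewer smooth muscle cells and less RNA per cell cannot be told apart.

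The contractile genes did not separate the 3 groups. In the CoA vs Control comparison none of the 6 genes was called, while 8.81% of all probes tested were. In the Corrected vs Control comparison TPM2 alone was called, as higher in Corrected, against 5.39% of all probes, and in the CoA vs Corrected comparison none was called against 2.77%. No gene had groups that did not overlap in any comparison. Of all probes tested, 10.2%, 8.85% and 4.24% had such groups in the 3 comparisons in that order. With 6 genes, counts this low are near what these shares give, so they do not set these genes apart from other probes. The smallest adjusted p-values over all probes were 0.217, 0.240 and 0.909 in limma, so 0 probes of the series passed an adjusted p of 0.05, with 3877, 2278 and 1175 under an unadjusted 0.05. Over the 18 two-sided exact permutation tests of the 6 genes, the p-values ran from 0.114 to 0.943.

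**Figure D1:**
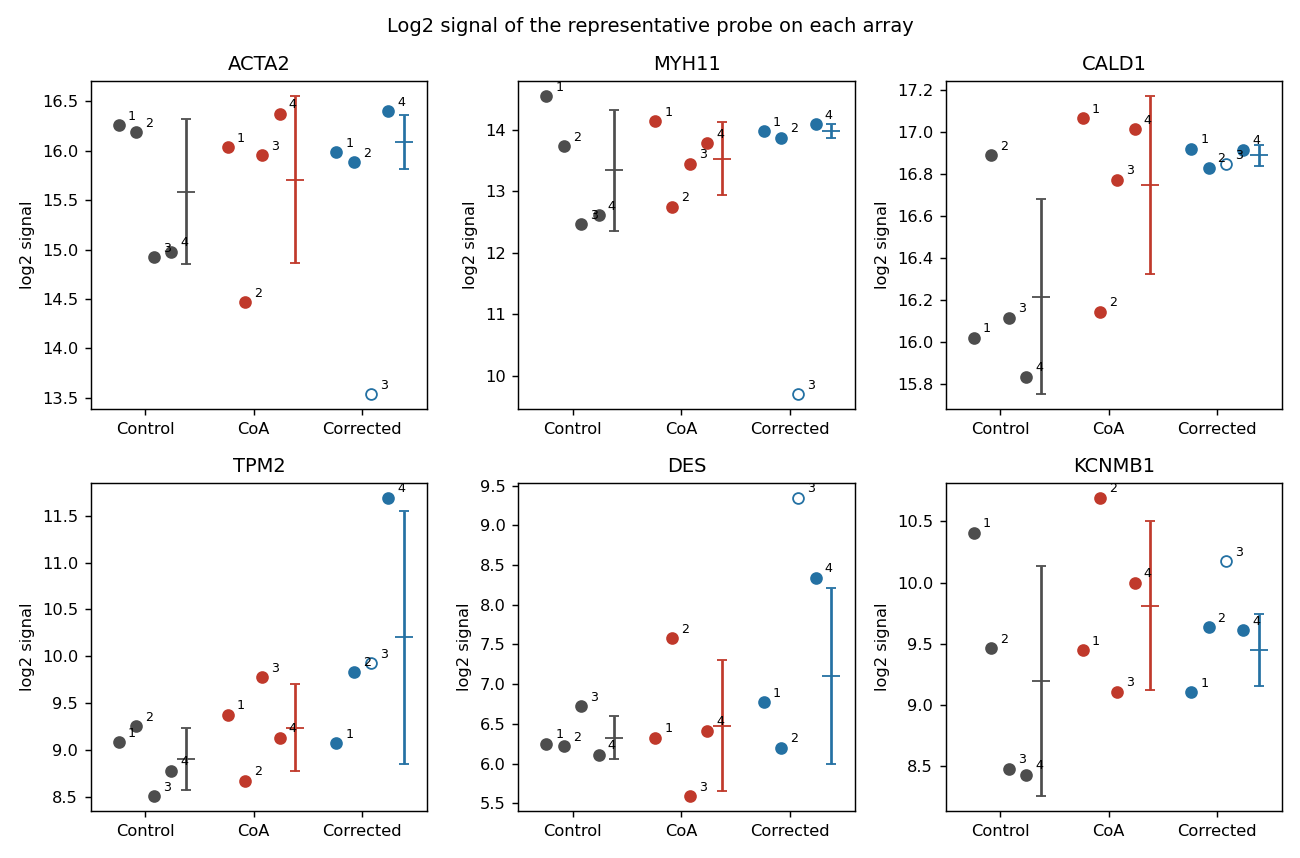
Log2 signal (vertical axes, scaled for each gene) of the probe for each of the 6 genes in the 3 groups. Filled points are arrays numbered by replicate, the bar beside each group is its mean with the SD over the arrays tested, and the open point is the excluded Corrected replicate 3. ACTA2 and MYH11 were low on Control 3, Control 4 and CoA 2, and TPM2 was highest on Corrected 4.

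In the main fit most fold changes nevertheless shared a direction within a comparison. All 6 log2 fold changes were above 0 in CoA vs Control, with a median of 0.26 against 0.06 over all probes tested. All 6 were also above 0 in Corrected vs Control, with a median of 0.66 against 0.03. The comparisons share the Control arrays, and 5 of the 6 genes were below their mean over the 11 arrays on both of the near-identical Control replicates 3 and 4. Array weights turned DES to -0.14 in CoA vs Control, and all 12 arrays together turned ACTA2 and MYH11 in Corrected vs Control. With Control 3 and 4 averaged as 1 sample, ACTA2 and MYH11 turned to -0.09 and -0.08 in CoA vs Control. In that comparison 4 of 25 alternative fits turned ACTA2, 4 turned MYH11 and 3 turned DES, and no fit turned the others. In Corrected vs Control, 1 of 26 turned each of ACTA2, MYH11 and KCNMB1, and none turned the others. Within the scan that held Control 1, 2 and 4 with Corrected 2, all 6 Corrected vs Control values were above 0, from 0.0108 for DES to 0.80 for TPM2, with 1 Corrected array against 3 Control arrays. In CoA vs Corrected, 5 of 6 were below 0, with a median of -0.42 against 0.02 over all probes tested, and CALD1 turned to 0.32 when arrays were scaled by their 75th percentile.

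**Figure D2:**
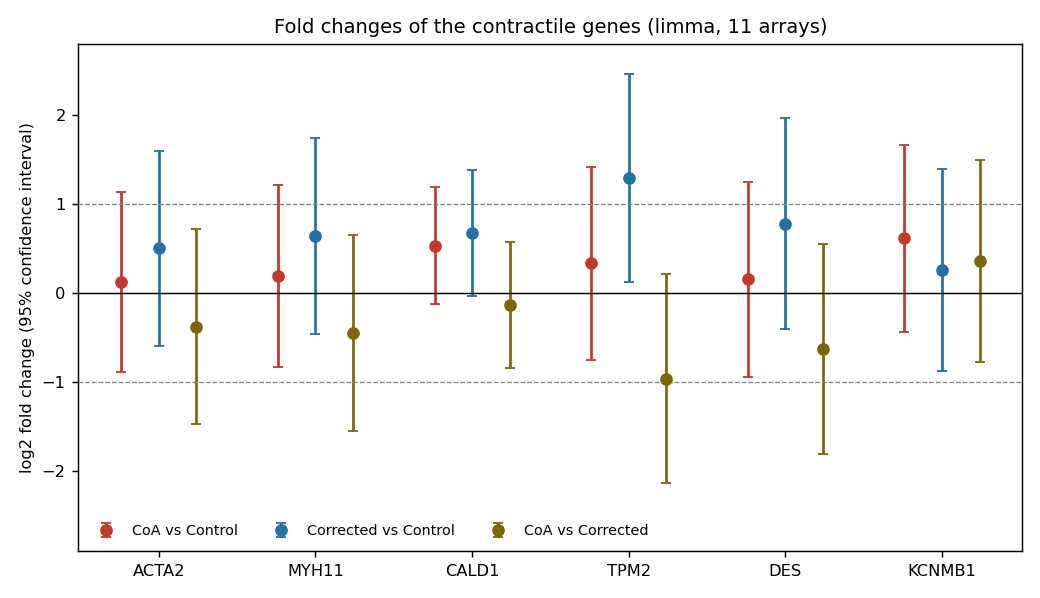
Log2 fold change (vertical axis) of each gene in the 3 comparisons, with 95% confidence intervals from limma over 11 arrays. The dashed lines mark a 2-fold change, and the interval of TPM2 in Corrected vs Control, 0.12 to 2.47, is the one that does not include 0.

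The actin and the myosin of the contractile filaments differed between rabbits of the same group in Control and CoA by more than the group means differed. ACTA2 gave log2 signals of 16.26, 16.19, 14.92 and 14.98 in Control replicates 1 to 4. In CoA replicates 1 to 4 it gave 16.04, 14.47, 15.95 and 16.37, and in Corrected replicates 1, 2 and 4 it gave 15.98, 15.88 and 16.40. Control 3, Control 4 and CoA 2 were thus low and the other 8 arrays were high, with a gap of 0.91 log2 units between them, and the 3 groups overlapped. Control averaged 15.59 ± 0.74 (SD, n = 4), CoA averaged 15.71 ± 0.85 (SD, n = 4) and Corrected averaged 16.09 ± 0.27 (SD, n = 3). The log2 fold change was 0.12 in CoA vs Control, with a 95% confidence interval from -0.89 to 1.14 and an adjusted p of 0.931 in limma. It was 0.50 (-0.59 to 1.60, adjusted p = 0.818) in Corrected vs Control and -0.38 (-1.48 to 0.71, adjusted p = 1) in CoA vs Corrected. These intervals hold both no change and a 2-fold change in at least 1 direction.

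MYH11 followed the same division of arrays, as read by a probe that, by the authors' account, would detect its SM1 isoform but not SM2. Its log2 signals were 14.55, 13.73, 12.46 and 12.60 in Control replicates 1 to 4, a range of more than 4-fold among untreated rabbits. They were 14.14, 12.74, 13.44 and 13.77 in CoA replicates 1 to 4 and 13.97, 13.86 and 14.09 in Corrected replicates 1, 2 and 4. Again Control 3, Control 4 and CoA 2 were the lowest, 0.70 log2 units below the next array, and the Corrected arrays were close together. The log2 fold change was 0.19 in CoA vs Control (-0.83 to 1.21, adjusted p = 0.88 in limma), 0.64 in Corrected vs Control (-0.46 to 1.74, adjusted p = 0.768) and -0.45 in CoA vs Corrected (-1.55 to 0.65, adjusted p = 1). Without Control replicate 1 the Corrected vs Control value was 1.04 and passed the call (unadjusted p = 0.0368, adjusted p = 0.719 in limma). On the excluded Corrected replicate 3, ACTA2 was at 13.54 and MYH11 at 9.70, lower than on any array tested. With that array added, both genes turned to the opposite direction in Corrected vs Control, to -0.14 for ACTA2 and -0.43 for MYH11.

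Markers of other tissues did not move the same way on the 3 arrays where ACTA2 and MYH11 were low. The log2 summed signal of 5 cardiac muscle genes was lowest of all arrays on Control 3 and Control 4, at 11.83 and 11.86, and highest on CoA 2, at 16.95. PLN and RYR2 of this list are also counted below as regulators of smooth muscle contraction, so the sum is not specific to another tissue. PLN was at 10.59 on Control 3 and 10.67 on Control 4. UCP1, the uncoupling protein of brown fat, was highest on Control 3 and Control 4, at 7.09 and 7.33, and was 3.65 on CoA 2. Over the whole list of 5 adipocyte genes the log2 summed signal was 12.31 and 12.38 on these Control arrays, within the range of 8.97 to 13.84 over the arrays tested. The part of other tissues in the levels of ACTA2 and MYH11 was not tested.

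Limma's array weights, which let arrays that fit the group means poorly count less, changed the CoA vs Control result. With weights over 12 arrays ACTA2 rose by 1.08 log2 units (adjusted p = 0.00591), MYH11 by 1.14 (adjusted p = 0.0141) and KCNMB1 by 1.1 (adjusted p = 0.0097), and all 3 were called, while CALD1 had 0.94 (adjusted p = 0.00109) and missed the 2-fold limit. In the same fit 5209 of all 27283 probes were called and 10928 had an adjusted p under 0.05, against 2404 and 0 without weights. In that fit Control 3 and Control 4, the near-identical pair, had the highest weights of 6.79 and 5.82, and CoA 2 had a weight of 0.215. With Control 3 and Control 4 averaged as 1 sample and no weights, the values were -0.09 for ACTA2 and -0.08 for MYH11.

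CALD1, the caldesmon gene, had the narrowest range of the 6 over the 11 arrays. Its log2 signals were 16.02, 16.89, 16.12 and 15.84 in Control replicates 1 to 4 and 17.07, 16.14, 16.77 and 17.01 in CoA replicates 1 to 4. In Corrected replicates 1, 2 and 4 they were 16.92, 16.83 and 16.92. Control 2 and CoA 2 lay on the other group's side, so that Control overlapped both other groups. The log2 fold change was 0.53 in CoA vs Control (-0.12 to 1.19, unadjusted p = 0.101, adjusted p = 0.428 in limma) and 0.67 in Corrected vs Control (-0.03 to 1.38, unadjusted p = 0.0604, adjusted p = 0.618). The two-sided exact permutation test, which doubled the smaller tail, gave 0.114 for both. In this form the smallest possible p is 0.0286 with 4 against 4 and 0.0571 with 3 against 4. No p under 0.05 was therefore possible for Corrected vs Control in this form of the exact test. CoA and Corrected differed by -0.14 (-0.85 to 0.57, adjusted p = 1 in limma). With scaling of the arrays by the 75th percentile of their signals, CALD1 was 1.26 log2 units higher in CoA than in Control and was called (unadjusted p = 0.00407, adjusted p = 0.271). That scaling moved the median of all probes in this comparison from 0.06 to 0.22.

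TPM2, the beta-tropomyosin gene, was the one gene called, and the call was lost when any of 3 arrays was left out. Its log2 signals were 9.08, 9.25, 8.51 and 8.78 in Control replicates 1 to 4 and 9.38, 8.67, 9.78 and 9.13 in CoA replicates 1 to 4. In Corrected replicates 1, 2 and 4 they were 9.07, 9.84 and 11.69. Corrected 4 stood 1.86 log2 units above Corrected 2, and Corrected 1 lay inside the Control range. TPM2 was 2.45-fold higher in Corrected than in Control, a log2 fold change of 1.30 ± 0.53 (SE) with a 95% confidence interval of 0.12 to 2.47 (unadjusted p = 0.0332, adjusted p = 0.569 in limma), while an exact permutation test (two-sided) gave p = 0.171. Without Corrected replicate 4 the log2 fold change was 0.55 (unadjusted p = 0.178 in limma). The call was also lost without Control replicate 3 (1.16, unadjusted p = 0.0765 in limma) and without Control replicate 4 (1.25, unadjusted p = 0.0628). Its direction stayed the same with each array left out in turn. The log2 fold change of TPM2 was 0.33 in CoA vs Control (-0.75 to 1.42, adjusted p = 0.781 in limma) and -0.96 in CoA vs Corrected (-2.13 to 0.21, adjusted p = 1).

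**Figure D3:**
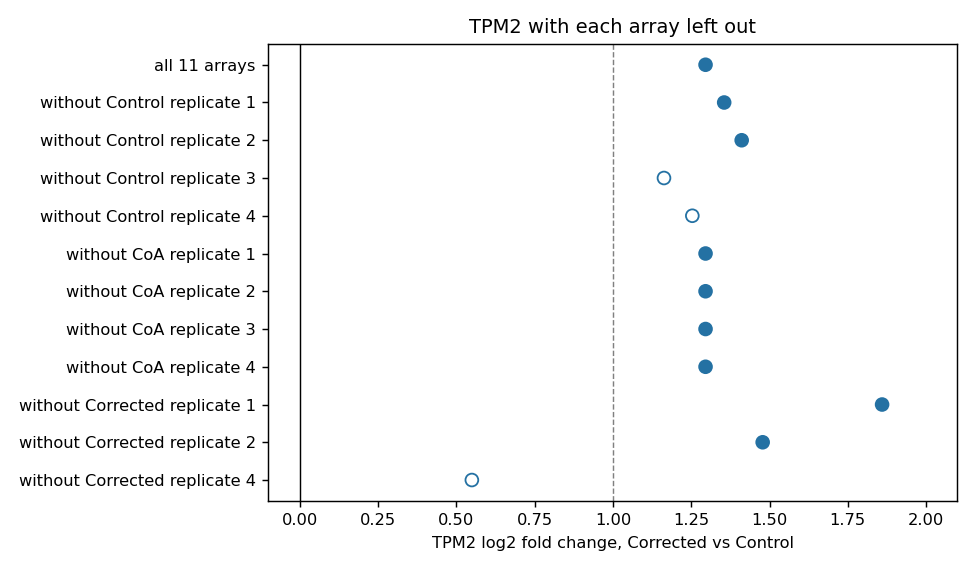
TPM2 log2 fold change in Corrected vs Control (horizontal axis) with all 11 arrays and with each array left out in turn. Filled points passed the call, open points did not, and the dashed line marks 2-fold. The lowest value, 0.55, is the one without Corrected replicate 4.

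DES, the desmin gene, was also highest on Corrected 4 among the 11 arrays tested, and its main probe was detected on all 12 arrays. Its log2 signals were 6.25, 6.22, 6.72 and 6.11 in Control replicates 1 to 4, which was a narrow band. They were 6.33, 7.58, 5.59 and 6.41 in CoA replicates 1 to 4 and 6.77, 6.20 and 8.34 in Corrected replicates 1, 2 and 4. CoA 2 and Corrected 4 lay well above every Control array, Corrected 1 lay just above the highest of them, and CoA 3 lay below the lowest. The log2 fold change was 0.15 in CoA vs Control (-0.94 to 1.25, adjusted p = 0.916 in limma), 0.78 in Corrected vs Control (-0.40 to 1.96, adjusted p = 0.739) and -0.63 in CoA vs Corrected (-1.81 to 0.56, adjusted p = 1). Without CoA replicate 2 the first of these was -0.22, and without CoA replicate 2 and Corrected replicate 4 the second was 0.16. The second DES probe was detected on 1 of 12 arrays, CoA 2, at 4.93, and was therefore outside the main test. On Corrected 4 it read 3.94, without being detected there, and on the other 9 arrays tested it read 1.26 to 2.58. Both DES probes thus had their highest normalized values among the arrays tested on CoA 2 and Corrected 4. Before normalization between arrays, the main probe read 88.2 on CoA 2, within the Control range of 63.4 to 159.1. It read 198.3 on Corrected 4, below 207.5 on Corrected 1. The second probe was still highest on these 2 arrays, at 18.9 and 12.7. CoA 2 and Corrected 4 also had the lowest median processed signals of the arrays tested, 20.4 and 28.1. The part of normalization in these DES values was not tested.

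Some striated muscle genes were high on CoA 2, and fewer on Corrected 4. The log2 summed signal of the 5 cardiac genes with a probe (of 14 listed) was 16.95 on CoA 2, 14.33 on Corrected 4 and 11.83 to 13.79 on the other arrays tested. That of the 8 skeletal muscle genes with a probe (of 15 listed) was 15.44 on CoA 2, 11.94 on Corrected 4 and 12.07 on Corrected 1. TNNC2, a troponin C of fast muscle, gave the largest part of this sum on each array. It was at 11.86 on Corrected 4 and 11.93 on Corrected 1, so the sum there was close to a reading of 1 gene. On CoA 2 the sum came from TNNC2, at 15.07, and from CKM. TNNI2 was at 3.5 there, its lowest value on any array, MYH1 at 4.45, ATP2A1 at 4.59 and RYR1 at 4.51 were within or near their Control ranges, and CASQ1 and CACNA1S were not detected. MYH1 and ATP2A1, the myosin and calcium pump of fast muscle, were highest on Corrected 2, at 9.96 and 8.78, an array where DES was 6.20. CKM, the creatine kinase of muscle, was 13.28 on CoA 2 and 3.11 to 6.43 elsewhere, with its lowest value on Corrected 4. CASQ1, the calcium store protein of skeletal muscle, was 6.61 on Corrected 4 and 1.27 to 4.87 elsewhere. The cardiac troponin C gene TNNC1 was 16.21 on CoA 2 and 13.19 on Corrected 4, its highest values on the arrays tested. TNNC1 and TNNC2 were both lowest on Control 3 and Control 4 and highest on CoA 2, so the cardiac and skeletal sums were not independent. Which cells gave the DES and TPM2 signal on Corrected 4 was not tested, and TPM2 was not raised on CoA 2.

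**Figure D4:**
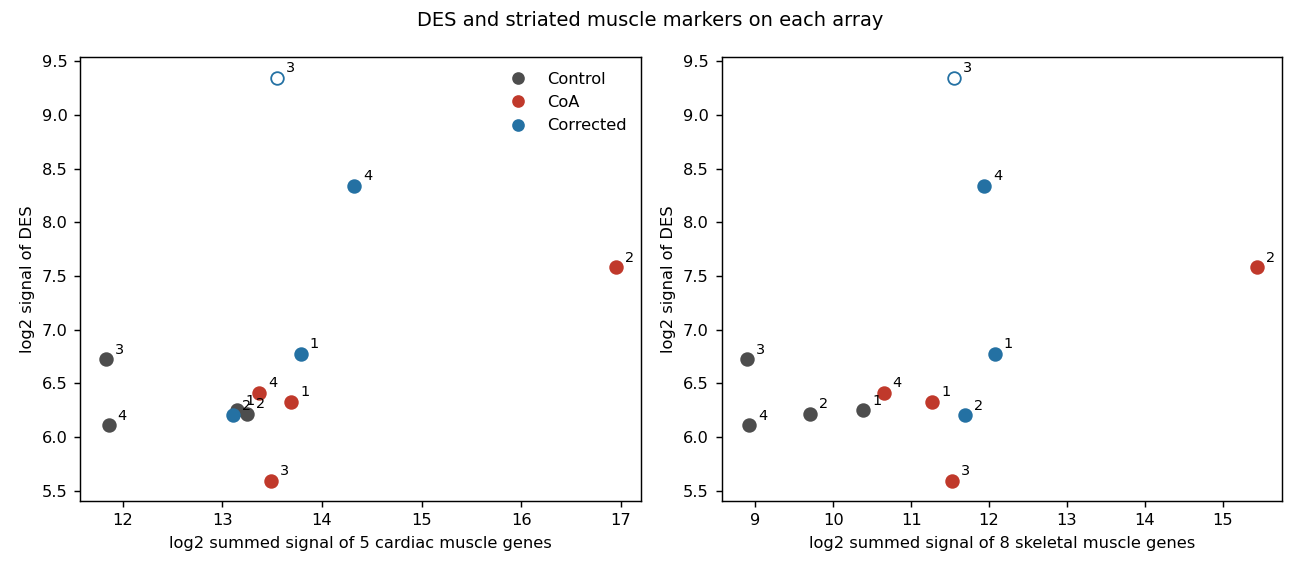
Log2 signal of DES (vertical axes) against the log2 summed signal of 5 cardiac (left) and 8 skeletal muscle genes (right), 1 point for each array, numbered by replicate and coloured by group. The open point is the excluded Corrected replicate 3. CoA 2 had the most striated muscle signal, and Corrected 3 and Corrected 4 had more DES than CoA 2 with less of it. TNNC2 gave the largest part of the skeletal sum.

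KCNMB1, the potassium channel subunit, ranged widely in Control and CoA. Its log2 signals were 10.41, 9.47, 8.48 and 8.43 in Control replicates 1 to 4 and 9.45, 10.69, 9.11 and 10.00 in CoA replicates 1 to 4. In Corrected replicates 1, 2 and 4 they were 9.11, 9.63 and 9.61. Control 3 and Control 4 were again the lowest, but CoA 2, where ACTA2 and MYH11 were low, had the highest normalized value. Before normalization between arrays, KCNMB1 read 828.3 on CoA 2, within the Control range of 342.8 to 2691.7. The part of normalization in this KCNMB1 value was not tested. The log2 fold change was 0.62 in CoA vs Control (-0.43 to 1.67, adjusted p = 0.559 in limma), 0.25 in Corrected vs Control (-0.88 to 1.39, adjusted p = 0.923) and 0.36 in CoA vs Corrected (-0.77 to 1.5, adjusted p = 1). Without Control replicate 1 the CoA vs Control value was 1.02 and passed the call (unadjusted p = 0.0366, adjusted p = 0.486 in limma). KCNMA1, the pore-forming subunit with which KCNMB1 assembles, was 5.93 to 7.21 in Control, and its highest values were 9.18 on CoA 2 and 8.64 on Corrected 4. Its log2 fold change was 1.05 in CoA vs Control and 1.02 in Corrected vs Control, and it was not called in either.

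Read across arrays, the normalized signals of the genes did not vary as 1 block. On Control 4 all 6 were below their mean over the 11 arrays, and on Control 3 all but DES were. On CoA 2, ACTA2, MYH11, TPM2 and CALD1 were below their means, with deviations of -1.30, -0.84, -0.71 and -0.45 log2 units. DES and KCNMB1 were 0.99 and 1.21 above their means there. Before normalization between arrays, DES and KCNMB1 on CoA 2 lay within their Control ranges. On Corrected 4 all 6 were above their means, by 2.31 for TPM2, 1.75 for DES and at most 0.63 for the other 4.

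**Figure D5:**
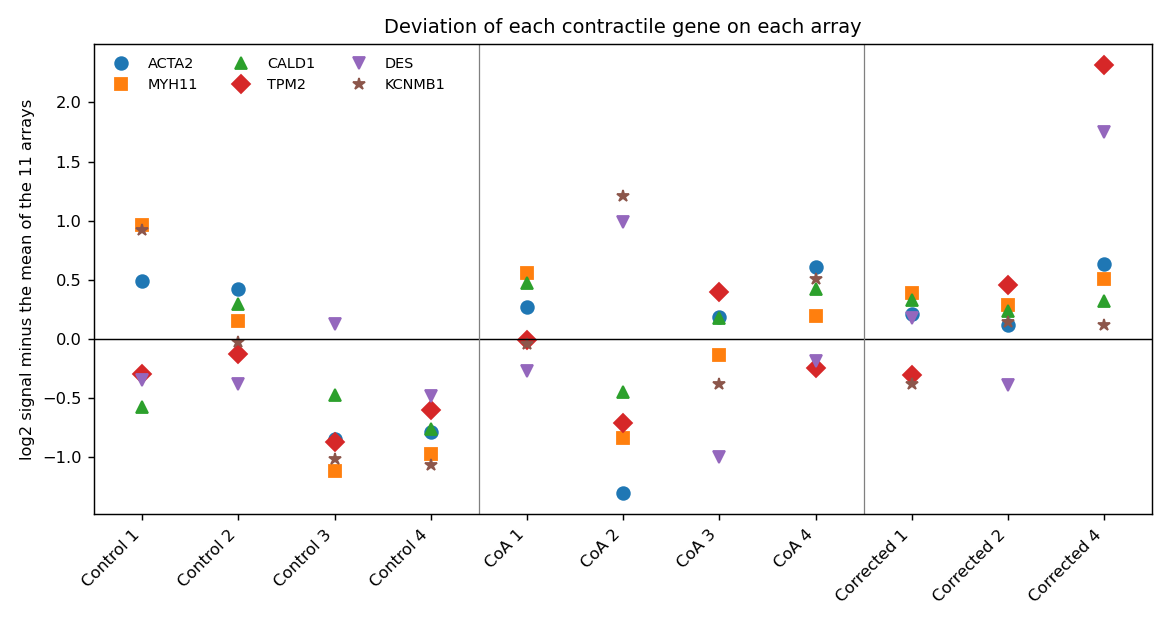
Log2 signal of each of the 6 genes minus its mean over the 11 arrays (vertical axis), array by array, with lines between Control, CoA and Corrected. The genes lay below 0 on Control 3 and Control 4 apart from DES on Control 3, lay on both sides of 0 on CoA 2, and TPM2 and DES were highest on Corrected 4.

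ACTA2 and MYH11 varied together across the 11 arrays. Their log2 signals gave Pearson's r = 0.885 (permutation p = 0.00444, adjusted p = 0.0421 over 15 pairs) and Spearman's rho = 0.718 (permutation p = 0.0171, adjusted p = 0.257). Without CoA 2 and Control 3, the arrays farthest from the ACTA2 median, r was 0.823, and after the group means were removed it was 0.871. The low arrays Control 3, Control 4 and CoA 2 carry much of the range of both genes, and the near-identical Control 3 and Control 4 enter as separate points. Of the other 14 pairs, ACTA2 with TPM2 had r = 0.573 (permutation p = 0.00562, adjusted p = 0.0421) and rho = 0.582 (permutation p = 0.0638, adjusted p = 0.325), with r = 0.426 without the same arrays. Corrected 4, the highest of the 11 arrays for both of these genes, was kept in that check. No other pair had an adjusted p under 0.05 for r, and no pair of the 15 did for rho. ACTA2 with CALD1 gave r = 0.704 (permutation p = 0.0358, adjusted p = 0.139) and rho = 0.536 (permutation p = 0.0935, adjusted p = 0.325). TPM2 and DES gave r = 0.463 (permutation p = 0.23, adjusted p = 0.431) and rho = -0.209 (permutation p = 0.539, adjusted p = 0.698), and r was -0.705 without Corrected 4 and Corrected 2, so the positive value rested on those arrays.

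Few other genes of the contractile apparatus could be read by symbol. Of 27 listed, 4 had a probe, and all 4 were tested: the tropomyosin gene TPM1, beta-actin (ACTB), caveolin-1 (CAV1) and filamin A (FLNA). None was called in any comparison, with log2 fold changes of 0.46, 0.07, -0.11 and -0.22 in CoA vs Control and 0.29, -0.01, 0.19 and 0.48 in Corrected vs Control, in that order. TPM1 was highest on CoA 2 and Corrected 4, at 11.87 and 11.27, against 9.36 to 10.81 on the other 9 arrays tested. The widely used markers MYLK, CNN1, TAGLN, MYL9, MYH9, MYH10 and VIM had no probe matched by symbol and were not analysed here.

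Of 60 listed regulators of smooth muscle contraction, 29 had a probe and 24 were tested. In CoA vs Control 2 were called higher and none lower. In Corrected vs Control 1 was called higher and none lower, and in CoA vs Corrected none was called. Of all probes tested, 8.81%, 5.39% and 2.77% were called in these comparisons. The shares of regulators called were at or below these. The median log2 fold change was 0.59, 0.58 and 0.10 in the 3 comparisons, against 0.06, 0.03 and 0.02 over all probes tested. PLN, phospholamban, the inhibitor of the calcium pump of the sarcoplasmic reticulum, was 11.24, 11.90, 10.59 and 10.67 in Control and 12.23, 13.41, 12.14 and 12.19 in CoA, without overlap. Its log2 fold change was 1.39 ± 0.43 (SE, unadjusted p = 0.00761, adjusted p = 0.262 in limma). PLN is also a cardiac gene and was highest on CoA 2, where the cardiac list was highest. Among tested regulators that were not called, CACNB1 did not overlap Control in CoA (0.87) or in Corrected (0.96). In Corrected vs Control, CACNA2D1 (0.43) and PRKCB (-1.07) did not overlap either. Of all probes tested, 10.2% in CoA vs Control and 8.85% in Corrected vs Control had such groups.

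CACNB2, a beta subunit of voltage-gated calcium channels, was 7.38, 9.32, 7.10 and 7.02 in Control and 9.18, 9.83, 8.06 and 9.10 in CoA. Control 2 lay inside the CoA range, and the log2 fold change was 1.34 ± 0.55 (SE, unadjusted p = 0.0335, adjusted p = 0.322 in limma). EDNRA, the endothelin receptor of smooth muscle, was 7.16, 7.55, 7.16 and 7.91 in Control and 8.33, 7.59 and 9.48 in Corrected. Corrected 2 lay inside the Control range and Corrected 4 was the highest, and the log2 fold change was 1.02 ± 0.42 (SE, unadjusted p = 0.0346, adjusted p = 0.570 in limma).

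Among 950 other genes with a symbol and a tested probe, likeness to the contractile genes was measured as Pearson's r over the 11 arrays, as a description. All values came from the same 11 arrays, whose signals were normalized together. Nearest to the mean of the 6 centred log2 signals were GSPT2 (r = 0.936) and ENPP1 (r = 0.922). The nearest gene was SLMAP for ACTA2 (r = 0.918), ENPP1 for MYH11 (r = 0.868), MORF4L2 for CALD1 (r = 0.971), CALU for TPM2 (r = 0.895), CDH16 for DES (r = 0.965) and NR1I2 for KCNMB1 (r = 0.897). No gene was the nearest of more than 1 of the 6.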

How the data were processed

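Aortic rings of 12 rabbits were measured on Agilent 1-colour rabbit arrays (Cy3). The deposited values are scanner readings made by the authors with Agilent Feature Extraction 11.0.1.1. The processed signal used here is a fluorescence intensity with the background subtracted within each array and no normalization between arrays. The flags for detection and outlier spots are those deposited. Probes were named through their accessions and a RefSeq gene table, which matched 3368 of 43603 probes to 1264 symbols. The brightest probe stood for a gene with several. Probe sequences and a genome of the array's build were not used here, so signal shared with other actin, myosin or tropomyosin genes was not checked.

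The log2 intensity of all spots other than controls and flagged outliers was quantile normalized over 12 arrays, and spots of a probe were averaged. Probes detected on at least 8 of 12 arrays (positive and well above background) were fitted over 11 arrays with limma 3.58.1 in R 4.3.3, with group as the term. The fit was tested on simulated data. Single genes were tested by two-sided exact permutation, and correlations by permutation with 100000 resamples (SciPy 1.17.1). The labels and methods give 4 samples a group, taken here as separate rabbits. The number of arrays limits the precision.

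The 6 genes, the lists of other contractile genes and regulators, the marker lists of other tissues and the tests were chosen with earlier results of these data known. By rule the text names all probes of the 6 genes, genes of the contractile and regulator lists that were called, a set of common contractile markers where measured, and the most similar genes, of which 1 is not reported here. KCNMA1, CACNB1, CACNA2D1, PRKCB, UCP1 and the striated muscle genes were named after their values were seen. Alternatives were another normalization and background correction, other detection filters, other sets of arrays, array weights, unmoderated variances, scan or replicate number as a block, and leaving out each array. Leaving out CoA replicate 2 with Corrected replicate 4 was added after seeing the data.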

Additional observations from a re-analysis of the deposited data

Results flagged for a closer look

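Of 14 sets of 4 arrays tested for an array far from the others, 2 gave one, both from the second DES probe, and chance gives about 1 in 20. In Control, replicate 4 read 2.58 while the other 3 arrays read 1.26 to 1.29, with none of them detected above background. In CoA, replicate 2 read 4.93 while the others read 1.48 to 1.55, and CoA 2 was the one array on which this probe was detected.

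The excluded Corrected replicate 3, which the main tests left out, held normalized signals outside the range of the Control arrays. DES read 9.35 there against 6.11 to 6.72 in Control, and TPM2 read 9.92 against 8.51 to 9.25. Before normalization between arrays, DES read 109.4 on this array, within the Control range of 63.4 to 159.1. TPM2 then read 167.3, below the Control range of 436.4 to 1178.5. The median processed signal of this array, 8.85, was the lowest of the 12 arrays. The second DES probe, outside the tests because of its detection, read 4.93 on CoA 2, above its highest Control value of 2.58.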

How the results depend on the processing

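Over 456 recomputed fold changes of the 6 genes, 416 kept direction and side of the call, 24 turned sign, 9 lost and 7 gained the call, and 4 had an adjusted p under 0.05, all with array weights. In CoA vs Control the count of called genes was 0, but 3 with weights over 12 arrays (ACTA2 1.08, MYH11 1.14, KCNMB1 1.1; DES turned to -0.14), a fit that called 5209 of 27283 probes and gave 10928 an adjusted p under 0.05, 1 with 75th percentile scaling (CALD1 1.26) and 0 to 1 leaving out each array. In Corrected vs Control the count was 1 (TPM2), but 0 when only the groups compared were fitted (1.30), without moderated variances (1.30), with the replicate block (1.32), with the scan as a fixed block (0.80), with Control 3 and 4 as 1 sample (1.21) and without both CoA 2 and Corrected 4 (0.55), and 0 to 2 leaving out each array. In CoA vs Corrected it was 0, and 0 to 1 leaving out each array, where leaving out Corrected 1 made TPM2 a call.

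Sign turns, all in values that were not called, were as follows. With all 12 arrays ACTA2 was -0.14 and MYH11 -0.43 in Corrected vs Control, and 0.26 and 0.62 in CoA vs Corrected. With weights ACTA2 was 0.20, MYH11 0.0263 and CALD1 0.0801 in CoA vs Corrected, and with 75th percentile scaling CALD1 was 0.32 there. With Control 3 and 4 as 1 sample ACTA2 was -0.0916 and MYH11 -0.0774 in CoA vs Control. Without both CoA 2 and Corrected 4, DES was -0.22 in CoA vs Control, and ACTA2 was 0.19 and CALD1 0.0755 in CoA vs Corrected.

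Leaving out each array gave -0.10 to 0.53 for ACTA2, -0.10 to 0.59 for MYH11, -0.22 to 0.45 for DES and 0.32 to 1.02 for KCNMB1 in CoA vs Control. It gave 0.35 to 1.04 for MYH11, -0.001 to 0.66 for KCNMB1 and 0.55 to 1.86 for TPM2 in Corrected vs Control. In CoA vs Corrected it gave -0.60 to 0.0323 for ACTA2, -0.25 to 0.0617 for CALD1 and -1.53 to -0.22 for TPM2. The causes were not tested.

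The replicate numbers were not shown to pair the samples, since same-numbered arrays of CoA and Control correlated at -0.127 to 0.00637 in their deviations from group means, those of CoA and Corrected at -0.445 to -0.132, and those of Corrected and Control at 0.296, 0.448 and -0.0738 for replicates 1, 2 and 4. With the replicate block 17 of 18 fold changes kept direction and side of the call, and TPM2 in Corrected vs Control lost it. The scan as a random block changed no call. A fixed scan block was run for Corrected vs Control alone, since the CoA arrays shared no scan with another group. The second DES probe was below detection on 11 of 12 arrays, which leaves it without a usable fold change.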
